A study of Mus musculus with 6 samples.

Results

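The 9 genes described here encode the receptor chains of the interferons and the proteins that carry the signal from those receptors to the nucleus. They are Ifnar1, Ifnar2, Ifngr1, Ifngr2, Jak1, Jak2, Tyk2, Stat2 and Irf9, taken by name from the 22180 genes of an expression array experiment, and all 9 were measured. Each was represented by 1 row of the deposited table, so the rule that keeps the row of highest mean for a gene had no effect on them. The experiment used 6 arrays of basal cells, the outer layer of the mammary epithelium, sorted from virgin female mice aged 8 to 14 weeks. There were 3 arrays of knockout cells, with the genotype Trp53-/-, p16ink4a-/- and p19arf-/-, and 3 arrays of wild type cells. The tumour suppressor p53 is the product of Trp53, and p16ink4a and p19arf are both products of the Cdkn2a locus. Per the labels, each sample came from an adult mouse, blood and endothelial cells were mostly removed with beads before the sort, and the strain of the mice is not given in the sources used here. The questions are whether basal cells carry transcripts of this receptor system and whether their levels differ between the genotypes.

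Type I interferons bind a receptor made of IFNAR1 and IFNAR2, and interferon gamma binds a receptor made of IFNGR1 and IFNGR2. The cytoplasmic tails of these chains hold Janus kinases: TYK2 and JAK1 at the type I receptor, JAK1 and JAK2 at the interferon gamma receptor. The type I receptor assembles the transcription factor ISGF3, which contains STAT2 and IRF9, and ISGF3 binds the interferon-stimulated response element of its target genes. The interferon gamma receptor acts mainly through gamma-activated sites. Stat2 and Irf9 are themselves known as interferon-inducible genes, whereas the receptor chains and the Janus kinases are regarded as expressed without interferon in most cell types.

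The deposited values are log2 expression levels, so a difference of 1 is a doubling. The median over all rows of an array lay between 5.22 and 5.39, and the correlation between arrays, across genes, between 0.971 and 0.988. Cdkn2a read 6.25, 6.31 and 6.39 on the knockout arrays and 6.42, 5.84 and 6.48 on the wild type arrays, and the sources used here do not say whether its probes fall inside the deleted part, so this gene did not check the labels. Of 15 measured markers of the basal layer, 15 were above background on all 6 arrays, background being the 95th percentile of 1105 olfactory receptor genes on the same array. Among 14 measured leukocyte markers 1, Cd68, was above background on all arrays, and Ptprc, which encodes CD45, was below it on all. The mean of the leukocyte list lay between 5.14 and 5.28 in knockout cells and between 5.01 and 5.25 in wild type cells. Of 17 measured luminal markers 15 were above background on all arrays, with list means of 7.63 to 7.93 in knockout cells and 7.48 to 8.63 in wild type cells. For 10 fibroblast markers, 8 of them above background on all arrays, the means were 7.11 to 7.16 in knockout cells and 6.40 to 6.88 in wild type cells. All 15 genes of a dissociation stress list had a positive log2 fold change, with list means of 9.76 to 10.9 in knockout cells and 9.56 to 10.4 in wild type cells. In a bulk sample, fewer cells of a type and less RNA per cell cannot be told apart.

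All 9 genes were above background on every array, against 47.4% of all genes. The background line itself lay between 5.34 and 5.75. With the 99th percentile of the olfactory receptor genes as a stricter line, at 6.35 to 6.87, 8 of the 9 were above it on every array, and Tyk2 was below it on every array. The highest of 6 measured Y-linked genes, which female cells lack, read between 5.19 and 5.59, and all 9 genes exceeded it on every array. Levels of different genes are not ranked against each other, because each probe set responds to its own target.

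**Figure D1:**
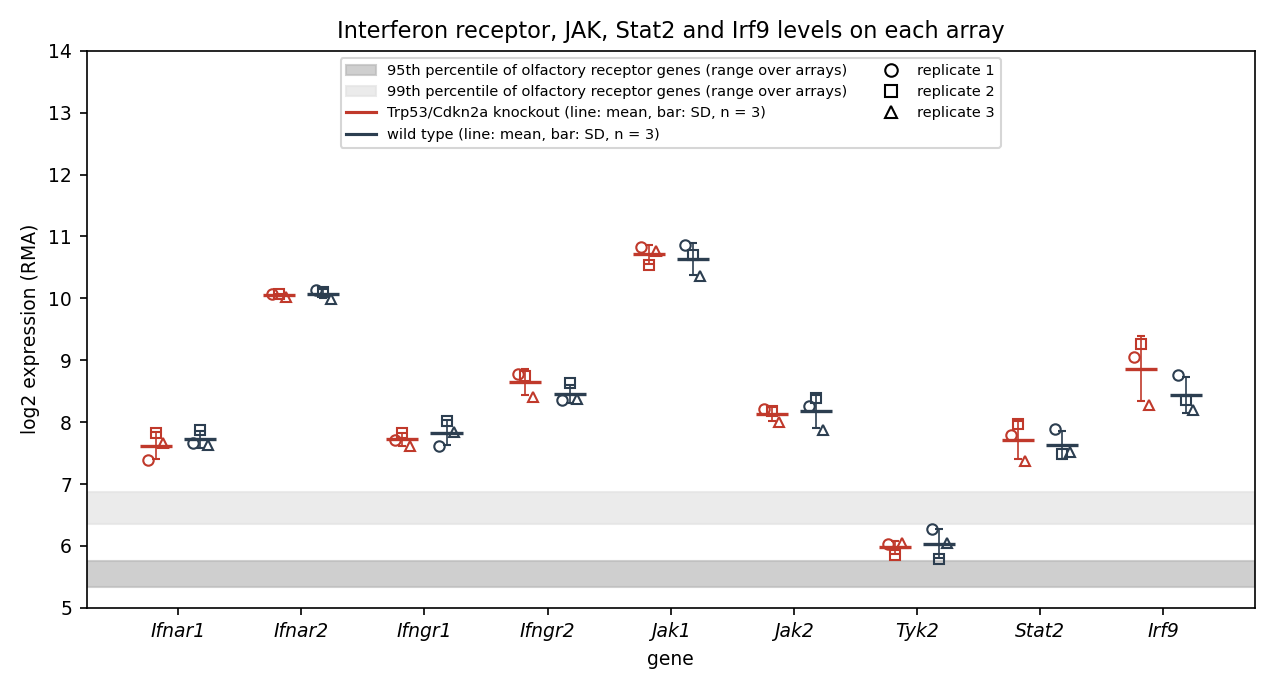
Log2 expression of the 9 genes on each array, with knockout arrays left of wild type arrays for each gene, marker shape giving the replicate, lines the mean and bars the SD (n = 3). The grey bands are the background lines over the 6 arrays; Tyk2 lies between them and the other 8 genes lie above both.

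None of the 9 genes passed the test between genotypes. With limma, 0 of 9 had an adjusted p under 0.05, as did 0 of all 22180 genes (0%), and all 9 had an adjusted p of 1.0. At an unadjusted p under 0.05 there were also 0 of the 9, against 3.32% of all genes, the smallest unadjusted p being 0.157 for Irf9. The genotypes overlapped in all 9 genes, so that 0 had every knockout array on one side of every wild type array, against 7.68% of all genes. The log2 fold changes, knockout minus wild type, ran from -0.11 for Ifngr1 to 0.42 for Irf9, 4 of them positive and 5 negative, with a median of -0.018, and the median over all genes was -0.0067. Their median size without sign was 0.086, and that over all genes 0.112. With 3 arrays a genotype the smallest p of an exact two-sided permutation test is 0.1, and the 9 genes had exact p between 0.2 and 0.9. Replicate numbers recur in both genotypes, and with replicate as a block the number of genes at an unadjusted p under 0.05 was 1112 in place of 736, still with 0 of the 9.

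Neither chain of the type I receptor passed the test, and for both the genotypes overlapped. Ifnar1, the chain that binds TYK2, read 7.38, 7.82 and 7.66 in knockout cells and 7.66, 7.88 and 7.63 in wild type cells. Knockout replicate 1 was the lowest array and the others lay between 7.63 and 7.88. The log2 fold change was -0.10 (SE, the standard error, 0.18), and its 95% interval ran from 0.702-fold to 1.23-fold (limma adjusted p = 1.0). Ifnar2, the chain that binds the ligand with high affinity, read 10.07, 10.06 and 10.03 in knockout cells and 10.13, 10.10 and 9.99 in wild type cells. Its 6 values spanned only 0.14, the narrowest range among the 9 genes. For Ifnar2 the log2 fold change was -0.018 (SE 0.13), and the interval ran from 0.805-fold to 1.21-fold.

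For the interferon gamma receptor, the ligand-binding chain and the accessory chain had fold changes of opposite sign, neither past the test. Ifngr1, which binds interferon gamma and JAK1, read 7.72, 7.82 and 7.62 in knockout cells and 7.62, 8.03 and 7.84 in wild type cells. Wild type replicate 2 was the highest and wild type replicate 1 level with knockout replicate 3 at the bottom. Its log2 fold change was -0.11 (SE 0.17), with an interval of 0.707-fold to 1.22-fold, and it was -0.0099 without wild type replicate 2 and -0.21 without wild type replicate 1. Across the 6 arrays Ifngr1 followed the mean of the luminal markers with a Pearson r of 0.966, and wild type replicate 2 was the highest array for both. This r was the largest of any of the 9 genes with any list. Ifngr1 also had r of -0.865 with the leukocyte marker mean. The part of luminal cells in its level was not tested. Ifngr2, which brings JAK2 to the receptor, read 8.78, 8.75 and 8.41 in knockout cells and 8.36, 8.62 and 8.37 in wild type cells. Knockout replicates 1 and 2 were above all wild type arrays and knockout replicate 3 was among them. The log2 fold change of Ifngr2 was 0.19 (SE 0.18), and the interval of 0.867-fold to 1.51-fold includes no difference. It was 0.13 without knockout replicate 1 and 0.31 without knockout replicate 3. Within replicates 1, 2 and 3 the knockout array exceeded its wild type counterpart by 0.42, 0.12 and 0.038, and 11.5% of all genes were higher in all 3 such pairs. Ifngr2 followed the mean of the dissociation stress genes across arrays with r of 0.850 and that of the negative regulators with r of 0.883. The part of dissociation in its level was not tested.

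The 3 Janus kinases had log2 fold changes between -0.057 and 0.075, none past the test. Jak1, which serves both receptors, read 10.83, 10.54 and 10.77 in knockout cells and 10.86, 10.70 and 10.35 in wild type cells, with wild type replicate 3 lowest. Its log2 fold change was 0.075 (SE 0.16), and the sign turned to -0.066 without wild type replicate 3. Jak2, the second kinase of the interferon gamma receptor, read 8.22, 8.17 and 8.00 in knockout cells and 8.26, 8.39 and 7.88 in wild type cells. All knockout values lay inside the wild type range, and the log2 fold change was -0.048 (SE 0.19). Tyk2, the kinase at IFNAR1, read 6.03, 5.86 and 6.06 in knockout cells and 6.27, 5.79 and 6.05 in wild type cells. Here too the wild type range enclosed the knockout arrays, and the log2 fold change was -0.057 (SE 0.17). The 95% intervals were 0.815-fold to 1.36-fold for Jak1, 0.723-fold to 1.29-fold for Jak2 and 0.738-fold to 1.25-fold for Tyk2.

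The ISGF3 subunits Stat2 and Irf9 varied most among the 9 genes from array to array. Stat2, the subunit with the transactivation domain, read 7.80, 7.97 and 7.37 in knockout cells and 7.90, 7.48 and 7.51 in wild type cells. Both the highest and the lowest value were knockout arrays, replicates 2 and 3. Its log2 fold change was 0.086 (SE 0.21), with an interval of 0.762-fold to 1.48-fold, and the sign turned to -0.043 without knockout replicate 2. Irf9, the subunit that recognises DNA, read 9.05, 9.27 and 8.28 in knockout cells and 8.76, 8.36 and 8.20 in wild type cells. Knockout replicates 1 and 2 were above every wild type array and knockout replicate 3 below wild type replicates 1 and 2. Irf9 averaged 8.86 ± 0.52 in knockout cells and 8.44 ± 0.29 in wild type cells (SD, n = 3 each), a log2 fold change of 0.42 (SE 0.27). In linear terms this is 1.34-fold, with a 95% interval of 0.873-fold to 2.05-fold (limma adjusted p = 1.0).

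The size of the Irf9 difference depended on single arrays. Without knockout replicate 3 its log2 fold change was 0.71 with an unadjusted limma p of 0.0141, and without knockout replicate 2 it was 0.22 with an unadjusted p of 0.459. The adjusted p remained 1.0 in both cases. With array weights, which give less to arrays that depart from the rest, the log2 fold change was 0.57 with an unadjusted p of 0.0452 and an adjusted p of 0.559. Within replicates 1, 2 and 3 Irf9 was higher in the knockout array by 0.29, 0.90 and 0.072, and with replicate as a block the unadjusted p was 0.0615 and the adjusted p 0.991. Stat2 and Irf9 followed each other across the 6 arrays with r of 0.913, the highest r among all pairs of these genes. Across arrays Irf9 had r of 0.795 with the dissociation stress mean, 0.823 with the basal marker mean and 0.715 with the mean of the ISGF3 target genes, and Stat2 had 0.413 with the last of these. The points are 6 arrays that share their normalization, so these r are descriptions. The dissociation stress mean was highest in knockout replicate 2, at 10.9, and lowest of the knockout arrays in replicate 3, at 9.76. Irf9 had the same order among the knockout arrays, but not among the wild type arrays. There the dissociation stress mean was highest in replicate 2, at 10.4, and Irf9 in replicate 1, at 8.76. The part of dissociation in the level of Irf9 was not tested.

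**Figure D2:**
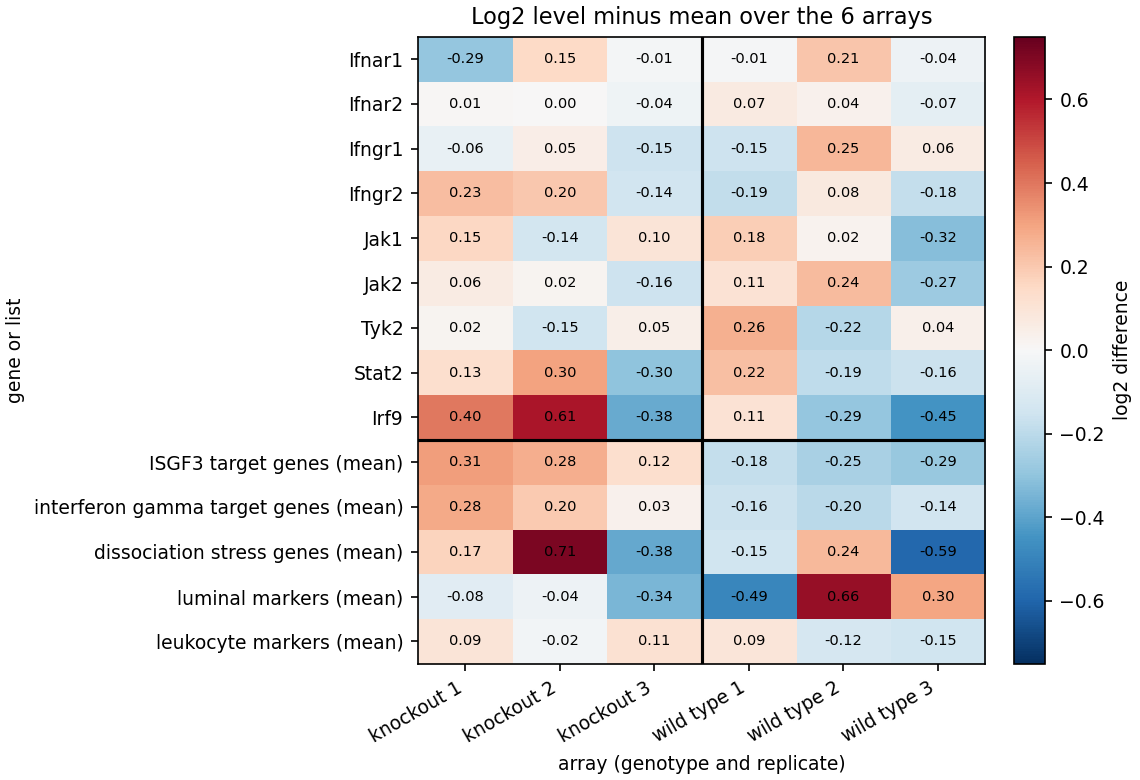
Log2 level of each gene (upper rows) and mean level of 5 gene lists (lower rows) on each array, as the difference from the mean over the 6 arrays, knockout arrays left of wild type arrays. Irf9 reaches 0.61 in knockout replicate 2 and -0.38 in knockout replicate 3, while the target gene means are positive on all knockout arrays and negative on all wild type arrays.

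The promoter windows of these genes were searched because Stat2 and Irf9 are known as interferon-inducible. RefSeq windows of assembly GRCm38.p6, from 250 bases before a transcript start to 50 after it, matched all 9 genes, with 2 windows for Irf9. The core of the interferon-stimulated response element, taken as GAAA followed after any 2 bases by GAAA on either strand, was present in the window of 1 of the 9 genes, Stat2, against 3.44% of all 32851 windows. The core of the gamma-activated site, TTCNNNGAA, which reads the same on both strands, was present for Ifnar1 and Ifnar2, against 8.30% of all windows. Neither core occurred in the windows of Ifngr1, Ifngr2, Jak1, Jak2, Tyk2 or Irf9, which says only that these letters are not in those windows. The windows of both ISGF3 subunits are given 5′ to 3′ on the plus strand, at chr10:128270248-128270547 for Stat2 and at chr14:55603735-55604034 for the upstream window of Irf9. Capitals mark the response element core, which lies on the opposite strand in Stat2 and begins at -222, where 0 is the first base of the transcript. The window of Irf9 holds none.
Stat2: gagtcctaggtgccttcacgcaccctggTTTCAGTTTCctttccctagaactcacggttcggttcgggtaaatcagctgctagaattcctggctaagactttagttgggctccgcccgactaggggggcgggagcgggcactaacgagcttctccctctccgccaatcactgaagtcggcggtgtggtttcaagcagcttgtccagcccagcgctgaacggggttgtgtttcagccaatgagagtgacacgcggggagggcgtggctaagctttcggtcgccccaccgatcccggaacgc
Irf9: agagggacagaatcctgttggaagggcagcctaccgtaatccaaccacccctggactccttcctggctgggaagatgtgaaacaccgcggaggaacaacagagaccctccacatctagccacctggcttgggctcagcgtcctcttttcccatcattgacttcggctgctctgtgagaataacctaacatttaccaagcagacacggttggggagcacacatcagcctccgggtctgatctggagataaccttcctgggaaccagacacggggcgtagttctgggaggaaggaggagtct

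Windows of target genes are set beside that of Stat2. The response element core was found for 12 of the 24 ISGF3 target genes with a window and for 9 of the 16 interferon gamma target genes. It was not particular to target genes, being found also for 11 of the 20 interferon genes with a window. The gamma-activated site core was found for 5 of the 24, 6 of the 16 and 10 of the 20. The sites of 5 genes are shown for comparison with Stat2, each with flanking bases in lower case and the core in capitals, in the direction of transcription. They begin at -85 in Ifit1, -72 in Isg15, -53 in Gbp7, -24 in Irgm1 and -77 in Socs1. Isg15, Irgm1 and Socs1 hold overlapping matches, and Ifit1 a separate match at -104, of which 1 each is printed. A match is a description of letters and not of binding.
Stat2: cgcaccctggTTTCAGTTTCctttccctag
Ifit1: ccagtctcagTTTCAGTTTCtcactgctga
Isg15: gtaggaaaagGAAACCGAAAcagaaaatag
Gbp7: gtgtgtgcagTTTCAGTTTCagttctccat
Irgm1: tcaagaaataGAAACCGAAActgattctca
Socs1: gccggaaagaGAAACCGAAAgcgggggtgg

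**Figure D3:**
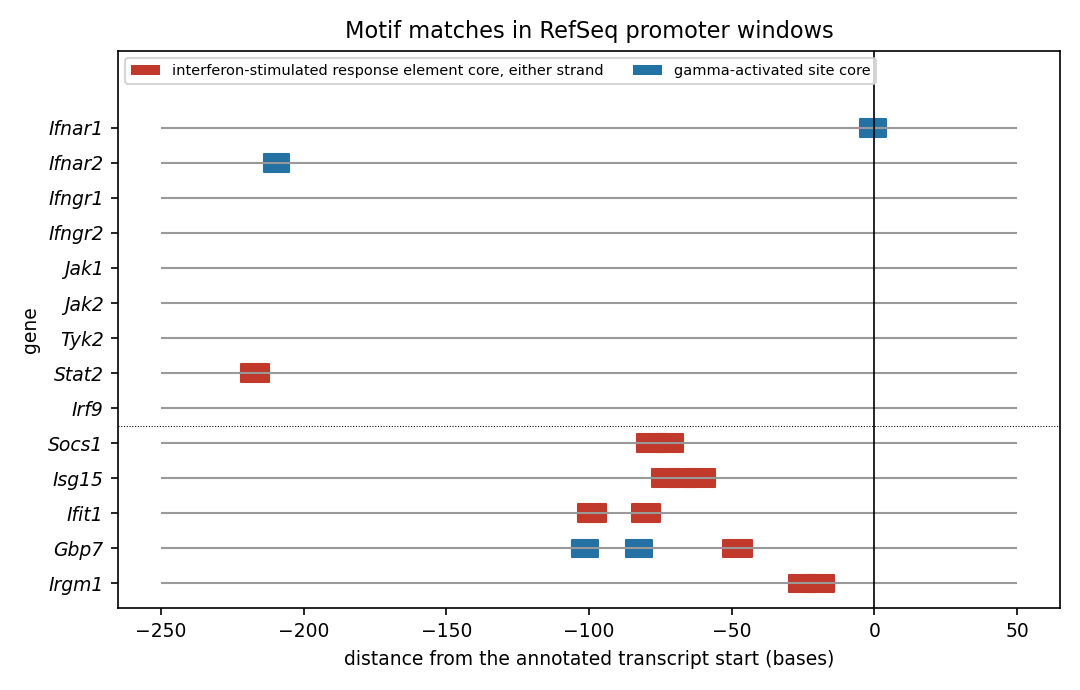
Positions of motif matches in RefSeq promoter windows, from 250 bases before to 50 after the transcript start, for the 9 genes (above the dotted line) and 5 comparison genes. Red boxes are response element cores and blue boxes gamma-activated site cores; among the 9 genes, Stat2 holds the only red box, and Ifnar1 and Ifnar2 hold a blue box each.

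Genes that act before and beside these receptors showed no call either. Of 20 measured interferon genes, 12 were below background on all 6 arrays, among them Ifnb1, the interferon beta gene, and Ifng, the interferon gamma gene. Ifnb1 read 4.27, 4.36 and 4.05 in knockout cells and 3.89, 3.65 and 4.32 in wild type cells. For Ifng the values were 4.69, 4.17 and 4.19 in knockout cells and 4.79, 4.73 and 4.64 in wild type cells. Ifna13, an interferon alpha gene below background on all arrays, had the smallest unadjusted p of these genes, 0.0440, at a log2 fold change of -0.37 (SE 0.16), and its genotypes overlapped. The 7 interferon genes above background on all arrays included Ifna1, Ifna4, Ifnl2 and Ifnl3, which belong to families of near-identical copies. Which copy gave the signal, if any did, is uncertain. Ifna4 had a log2 fold change of 0.31 (SE 0.21). Among 11 measured related receptor chains, 8 were above background on all arrays. Ifnlr1, the specific chain of the interferon lambda receptor, read 5.66, 5.96 and 6.05 in knockout cells and 5.88, 5.96 and 5.90 in wild type cells, close to the background line. Il6ra, which encodes the interleukin-6 receptor chain, had all knockout arrays below all wild type arrays at a log2 fold change of -0.64 (SE 0.27), which did not pass (limma adjusted p = 1.0). Its values were 8.86, 8.36 and 9.03 in knockout cells and 9.19, 9.93 and 9.05 in wild type cells, so the groups were separated by a narrow margin. Such separation in the lower direction was seen for 1 of the 11 related receptor chains, against 4.05% of all genes. Il4ra, the interleukin-4 receptor chain, had a log2 fold change of -0.33, Ghr, the growth hormone receptor, 0.20 and Epor, the erythropoietin receptor, -0.17, each with overlapping genotypes.

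Among regulators of the pathway, Usp18 and Irf7 had an unadjusted p under 0.05, both higher in the knockout, and neither passed over all genes. They were 1 of 18 negative regulators and 1 of 14 other STATs, IRFs and IRF2-binding proteins. Over all genes the share in the higher direction was 1.61%. Usp18, which binds IFNAR2 and displaces JAK1, read 8.06, 8.11 and 7.42 in knockout cells and 6.67, 7.51 and 6.65 in wild type cells. Knockout replicate 3 lay just under wild type replicate 2, and the log2 fold change was 0.92 (SE 0.28), with a limma unadjusted p of 0.0101 and adjusted p of 1.0. Irf7, a transcription factor of the interferon loop, read 8.12, 8.25 and 7.59 in knockout cells and 7.30, 7.32 and 6.89 in wild type cells. All knockout arrays of Irf7 exceeded all wild type arrays, with a log2 fold change of 0.81 (SE 0.22), short of the threshold over all genes. With replicate as a block, Irf1 and Socs3 also reached an unadjusted p under 0.05, at 0.00397 and 0.0317, against 0.0531 and 0.215 without it, and their adjusted p with the block were 0.784 and 0.960. Irf1, an interferon-inducible transcription factor, had 7.32, 8.27 and 6.72 in knockout cells and 6.80, 6.89 and 6.17 in wild type cells, with a log2 fold change of 0.82 (SE 0.37). Within replicates 1, 2 and 3 Irf1 was higher in the knockout array by 0.53, 1.38 and 0.55, although the genotypes overlapped. Socs3, a feedback inhibitor of cytokine receptors, had 8.47, 9.50 and 7.62 in knockout cells and 8.24, 8.23 and 7.36 in wild type cells. Socs1, an inhibitor of the Janus kinases, read 9.51, 9.48 and 9.50 in knockout cells, inside the wild type values of 9.63, 8.88 and 9.31. Its log2 fold change was 0.22 (SE 0.20). Pias1, a SUMO ligase, had all knockout arrays above all wild type arrays, with a log2 fold change of 0.31 (SE 0.19). Its knockout arrays lay between 10.00 and 10.03, and its wild type arrays were at 9.93, 9.89 and 9.32. Such separation was seen for 1 of 18 negative regulators, Pias1, and 1 of the 14 genes listed with Irf7, against 3.63% of all genes. Of 18 measured negative regulators 11 had a positive and 7 a negative log2 fold change, among them Socs5, of the same family as Socs1, at -0.42. The median of the negative regulators was 0.066, and it ran from 0.0036 without wild type replicate 1 to 0.11 without knockout replicate 3. A further list held 14 measured genes of other STATs, IRFs and IRF2-binding proteins, with a median of 0.045. This median was 0.020 when knockout replicate 3 was left out, and 0.13 when wild type replicate 1 was. In that list Irf3, which acts downstream of nucleic acid sensors, had a log2 fold change of -0.30, Stat4, below background on all arrays, 0.16 and Stat3, the factor of interleukin-6 signalling, 0.021.

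Target genes of the pathway were higher in the knockout on each list's median, though none passed over all genes. Of 31 measured ISGF3 target genes, 22 were above background on all arrays and 6 below it on all. A positive log2 fold change was seen for 27 of the 31, against 10703 of all 22180 genes. The median of the 31 was 0.42, against -0.0067 over all genes. Unadjusted p under 0.05 was reached by 13 of them in the higher direction, against 1.61% of all genes, and by 0 in the lower direction, against 1.71%. All knockout arrays exceeded all wild type arrays in 13, against 3.63% of all genes, and the smallest limma adjusted p was 0.818, for Rtp4. With replicate as a block the smallest limma adjusted p was 0.208, for Ifit1. Rtp4, an interferon-induced chaperone of receptor transport, read 9.48, 9.22 and 9.13 in knockout cells and 8.09, 7.32 and 8.04 in wild type cells, a log2 fold change of 1.46 (SE 0.23). Ifit1, which binds foreign RNA caps, read 8.25, 8.27 and 7.73 in knockout cells and 7.01, 6.15 and 5.62 in wild type cells. Its log2 fold change, 1.82 (SE 0.33), was the highest of this list. Xaf1, which promotes cell death, had 1.14 and Oasl2, of the oligoadenylate synthetase family, had 1.23 as log2 fold change, both without overlap between the genotypes. Isg15, a ubiquitin-like modifier, read 10.75, 10.93 and 9.50 in knockout cells and 9.39, 8.98 and 8.67 in wild type cells. Knockout replicate 3 exceeded wild type replicate 1 by a small margin, and the log2 fold change was 1.38 (SE 0.36). Ifih1, the sensor MDA5, read 8.53, 8.31 and 8.17 in knockout cells and 7.66, 7.59 and 7.49 in wild type cells, a log2 fold change of 0.76 (SE 0.17). The other ISGF3 target genes with an unadjusted p under 0.05 and no overlap were Ifi27, Rsad2, Cmpk2, Parp14, Eif2ak2, Zbp1 and Ddx58, with log2 fold changes between 0.45 for Zbp1 and 0.85 for Cmpk2. Of 18 measured interferon gamma target genes 14 were above background on all arrays. A positive log2 fold change was seen for 16 of the 18, with a median of 0.29. An unadjusted limma p under 0.05 was reached by 5, all higher, against 1.61% of all genes in that direction. Gbp7, a guanylate-binding protein gene, read 7.12, 7.17 and 7.33 in knockout cells and 6.10, 6.41 and 6.31 in wild type cells, a log2 fold change of 0.94 (SE 0.16). The lowest knockout array of Gbp7 exceeded the highest wild type array. Irgm1, an immunity-related GTPase, read 9.47, 9.16 and 8.45 in knockout cells and 8.41, 7.22 and 7.79 in wild type cells, a log2 fold change of 1.22 (SE 0.34). Igtp, another such GTPase, had a log2 fold change of 0.89, Gbp3, of the same family as Gbp7, 0.72 and B2m, the light chain of class I histocompatibility molecules, 0.34, all without overlap between the genotypes. The range of the 9 receptor and signalling genes stopped at 0.42. This comparison of lists is a description, and the difference between them was not tested. The lists were chosen with earlier results of these data known, so their counts beside all genes are not independent support. Other lists differed as well. Of 17 luminal markers 15 had a negative log2 fold change, with a median of -0.32, and the 15 dissociation stress genes had a median of 0.33. Of 10 fibroblast markers 9 had a positive one, with a median of 0.13 and a mean of 0.44. Unadjusted limma p was under 0.05 for 4 of the 10, all higher in the knockout, against 1.61% of all genes. In 2 of the 10 all knockout arrays exceeded all wild type arrays. Of 14 leukocyte markers, 8 of them below background on all arrays, 11 had a positive log2 fold change, with a median of 0.14. The part of luminal cells, fibroblasts, leukocytes and dissociation in the target gene levels was not tested.

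**Figure D4:**
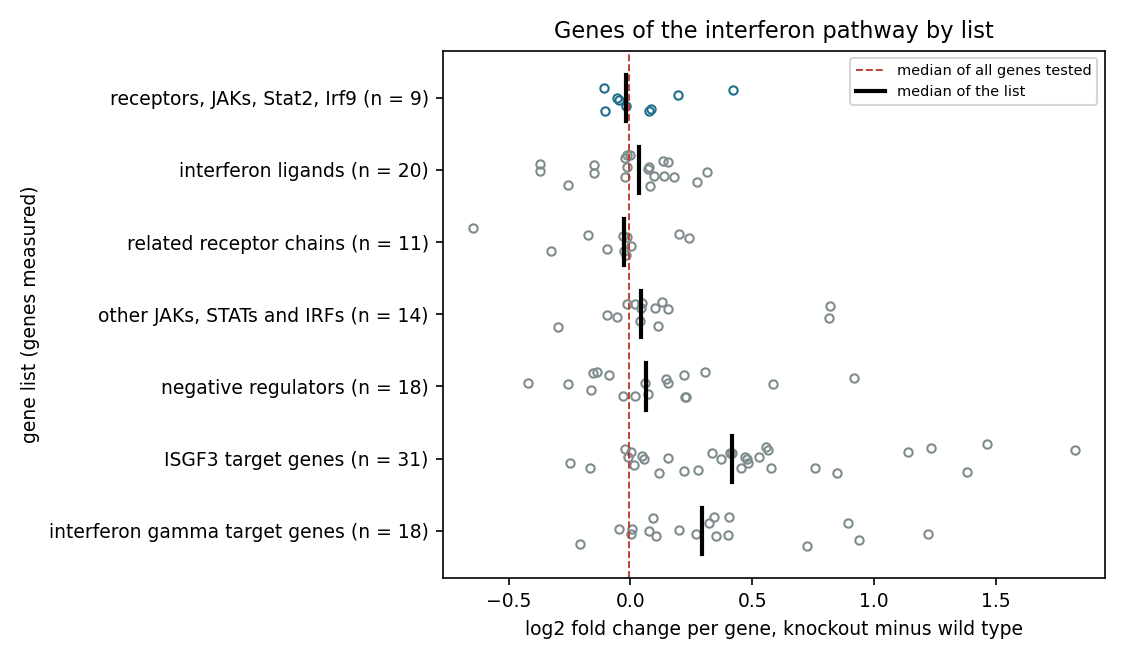
Log2 fold change of each measured gene, knockout minus wild type, in 7 lists, with a black bar at the list's median and a dashed line at the median of all genes (-0.0067). The 9 receptor and signalling genes centre on -0.018, the ISGF3 target genes on 0.42 and the interferon gamma target genes on 0.29.

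**Figure D5:**
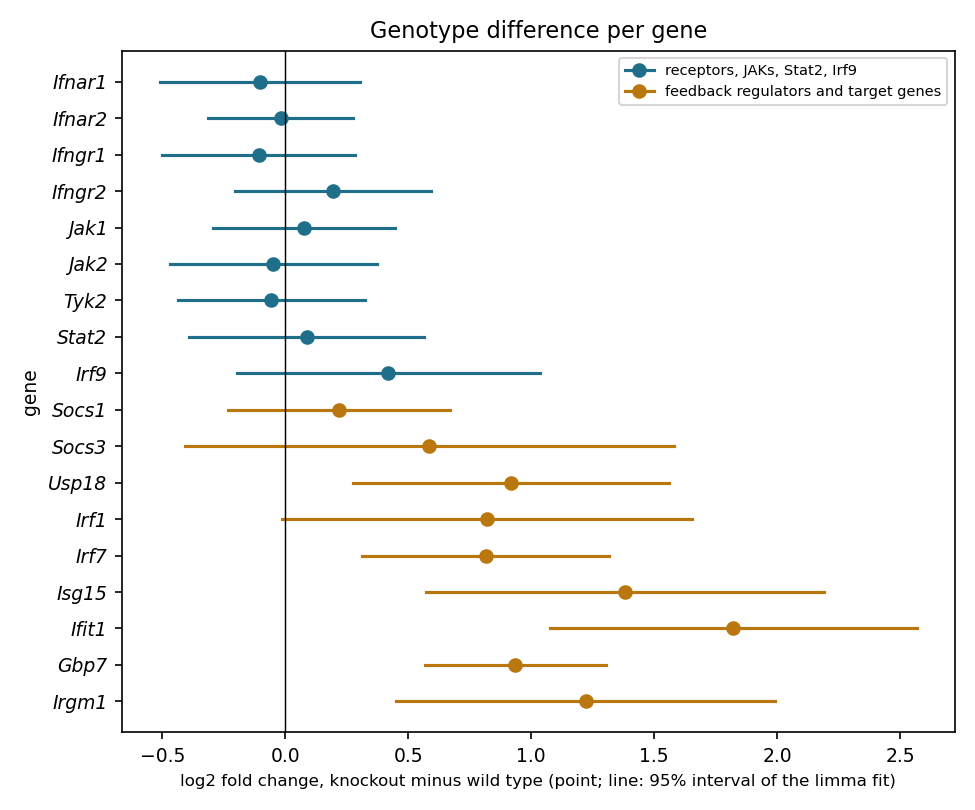
Log2 fold change, knockout minus wild type, with the 95% interval of the limma fit for the 9 genes and for 9 feedback regulators and target genes. All 9 upper intervals include 0, while those of Usp18, Irf7, Isg15, Ifit1, Gbp7 and Irgm1 lie above it before adjustment over all genes. The comparison genes were picked and do not stand for their lists. An interval that excludes 0 is the same as an unadjusted p under 0.05. Target genes near 0, such as Ifit3 at 0.12 and Ifi35 at -0.0079, are not drawn.

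The genes most like each of the 9 across the 6 arrays were sought among 10026 genes above background, leaving out predicted genes. The best match had a Pearson r between 0.985 and 0.999. Each is the highest of that many candidates over only 6 arrays and is given as a description. For Irf9 the closest were Bet1l, a vesicle transport protein gene, at 0.995, Ncoa4, which encodes the ferritin receptor of autophagy, at 0.994, and Snhg12, a small nucleolar RNA host gene, at 0.991. For Stat2 they were Gdf11, a growth factor of the TGF-beta family, at 0.985, Slc4a11 at 0.984 and Zfp692 at 0.982. Ifngr1 was closest to Cln3, a lysosomal membrane protein gene, at 0.999, then Syngr2 and Urod. Ifngr2 was closest to Nfatc4 at 0.996, then Lin37 and Coa7. Ifnar1 was closest to Ap5s1 at 0.992, then Kcnn4 and Smpd1, and Ifnar2 to Tti2 at 0.991, then Senp2 and Sstr3. Jak1 was closest to Kpna4, a nuclear import receptor gene, at 0.988, then Crebbp and Art1. Jak2 was closest to Tacc2 at 0.993, then Dkk3 and Cdk11b, and Tyk2 to Wdr77 at 0.991, then Neu3 and Krtap10-4. No known interferon target from the lists used here was among the 3 closest genes of any of the 9. With 3 places for each gene among 10026 candidates, that absence was likely in advance. It therefore does not show whether the 9 genes vary with the target genes.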

How the data were processed

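The deposited table holds log2 values per probe set. The authors made them with RMA, per the submitters' processing notes, which also name Transcriptome Analysis Console 4.0. RMA puts all arrays on a common distribution, which can narrow differences of dim genes. Of 41345 rows, 23521 had exactly 1 symbol in the platform annotation and gave 22180 genes. For 1082 genes with several rows the row of highest mean was kept. Trp53 was not analysed here. Arrays carry no read depth, so precision rests on their number.

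The knockout and wild type groups were fitted with limma 3.58.1 under R 4.3.3, using lmFit and eBayes with trend. Benjamini-Hochberg adjustment ran over all 22180 genes, at a threshold of 0.05. The fit was run on simulated data with independent noise for each gene, where calls were required only for large added changes. That run does not show the power for differences as small as those of the 9 genes. Of 232 listed entries 209 were measured. Genes were named by a rule: the 9 genes, Cdkn2a, Socs1, Usp18, the 4 smallest p-values of each pathway list, others with an unadjusted p under 0.05 and no overlap, marker genes, and the 3 closest genes of each of the 9. Marker lists are given by counts and means, with few genes named. Stat3, Socs3, Ifnlr1, Ifit3, Ifi35, the other interferon genes above background and the sites printed beside Stat2 fall outside the naming rule. They were chosen after their values were seen. The 9 genes and the lists were chosen with earlier results of these data known. Deviations of same-numbered arrays from their group means correlated at 0.121, 0.250 and 0.127 across genes, each over 0.1. The fit with a block, an alternative to the main fit, treats the numbers as pairing the arrays, which these values do not establish. The labels do not state what equal numbers share, and wild type replicate 1 correlated at 0.130 with knockout replicate 3. Other settings covered the eBayes prior, weights per array, renormalization, median centring, dim genes, multiple rows, the block, the background line and single arrays left out. Figures were drawn with matplotlib 3.10.9.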

Additional observations from a re-analysis of the deposited data

How the results depend on the processing

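None of the 9 genes passed under any of 15 alternatives to the fit, where the smallest adjusted p was 0.559 (Irf9 with array weights), and 0 of all genes passed, with a smallest adjusted p of 0.0749. Of 135 values of the 9 genes under these alternatives 125 kept their direction. The 10 that turned concerned log2 fold changes near 0. With array weights Ifnar2 was 0.025 and Jak2 0.12. Leaving out 1 array gave ranges of -0.20 to 0.016 for Ifnar1, -0.060 to 0.0099 for Ifnar2, -0.066 to 0.19 for Jak1, -0.20 to 0.058 for Jak2, -0.18 to 0.061 for Tyk2 and -0.043 to 0.26 for Stat2. Ifngr1, Ifngr2 and Irf9 kept their sign under all 15, but their size moved, Ifngr1 between -0.21 and -0.0099, Ifngr2 between 0.13 and 0.31 and Irf9 between 0.22 and 0.71. Irf9 alone of the 9 reached an unadjusted p under 0.05, in 2 settings, array weights and without knockout replicate 3. The replicate block, which treats same-numbered arrays as pairs, changed no call at the adjusted threshold; it gave 1112 genes at an unadjusted p under 0.05, against 736 without it. That number was 1970 with array weights, 355 after the filter on dim genes, 1444 over all rows and 1788 without wild type replicate 1. The median of the interferon gamma target genes lay between 0.19 and 0.35 without single arrays, lowest without knockout replicate 1. Without single arrays the median ran from -0.11 to 0.17 for the interferon genes, -0.11 to -0.0077 for the related receptor chains, 0.020 to 0.13 for the list of other STATs, IRFs and IRF2-binding proteins and 0.0036 to 0.11 for the negative regulators. With the stricter background 8 in place of 9 genes were present. A longer response element core, with any base and then T added after the second GAAA, chosen after seeing the data, was found for 0 of the 9 genes and 0.834% of all windows; a longer string matches fewer windows by construction. Array values near the background line, such as Tyk2, limit what a difference there can show.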
